A study of Mus musculus with 6 samples.

Results

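The genes described here present antigen on molecules of class II of the major histocompatibility complex (MHC), and all 8 that were looked for are in the deposited expression table. They were found by symbol among 621 genes. They are the alpha and beta chains of the classical molecule I-A (*H2-Aa* and *H2-Ab1*), the I-E beta chain (*H2-Eb1*), the related beta chain gene *H2-Eb2*, both beta chains of the nonclassical molecule H2-M (*H2-DMb1* and *H2-DMb2*), the invariant chain (*Cd74*) and the class II transactivator (*Ciita*). mRNA-seq was made from poly(A)-selected RNA of bone marrow (BM) cells, taken from leg bones (femur and tibia) of C57BL/6-background mice aged 8 weeks. The 3 KO libraries are named KO4, KO8 and KO9 and the 3 WT libraries WT1, WT3 and WT7, by group and replicate number, and both genotypes were bred from *Phc2*+/- mice. The titles and the source field give the KO samples as *Phc2* knockouts, whereas their genotype field gives *Phc2*+/- (heterozygote), so they are called KO after the titles. *Phc2*, whose product belongs to Polycomb repressive complex 1, was itself not analysed here. The sources do not say whether each library came from a separate mouse, so p-values measure only the spread between these libraries, which may be technical.

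MHC class II molecules are heterodimers of an alpha and a beta chain that show peptides of ingested proteins to CD4 T cells. In the endoplasmic reticulum they bind the invariant chain, which blocks the peptide groove and sends them to endosomes, where H2-M exchanges the remaining fragment of the invariant chain for peptide. The genes are transcribed mainly in B cells, dendritic cells and activated macrophages. *Ciita* encodes a coactivator that does not bind DNA itself. It is recruited by factors that sit on the X and Y boxes of class II promoters, among them RFX and NF-Y. C57BL/6 mice have the b haplotype, in which the I-E alpha chain gene is defective, so *H2-Eb1* is transcribed without I-E molecules on the cell surface.

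Of the 8 genes, 6 lie together on chromosome 17 of GRCm38, within 198.2 kb from 34143229 to 34341410. In order they are *H2-DMb2*, *H2-DMb1*, *H2-Ab1*, *H2-Aa*, *H2-Eb1* and *H2-Eb2*. RefSeq places 11 protein-coding genes in that interval, and these 6 were the ones analysed here. *Cd74* and *Ciita* lie on other chromosomes. RefSeq promoters of GRCm38.p6, from 250 bases before to 50 after a transcript start, were matched for 5 of the 8 genes. They are shown because the genes moved together over the libraries and class II promoters are known for a shared X and Y box. The stretches shown for *H2-DMb2* and *H2-Eb2* begin after the start of the RefSeq gene, at 34143229 and 34325503, and so lie within it. Each line runs 5′ to 3′ on the strand of the gene, and capitals mark the letters AACNGATG, part of an X box, TGACGTCA, and ATTGG, the core of a Y box.
*H2-DMb2*, chr17:34145108-34145178, plus strand: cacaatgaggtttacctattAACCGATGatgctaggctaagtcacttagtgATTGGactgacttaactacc
*H2-DMb1*, chr17:34153079-34153149, plus strand: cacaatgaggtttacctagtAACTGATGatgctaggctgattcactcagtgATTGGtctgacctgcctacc
*H2-Aa*, chr17:34287852-34287917, minus strand: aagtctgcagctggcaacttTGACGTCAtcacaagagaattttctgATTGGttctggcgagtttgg
*H2-Eb1*, chr17:34305758-34305827, plus strand: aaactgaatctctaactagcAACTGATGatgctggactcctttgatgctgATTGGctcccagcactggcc
*H2-Eb2*, chr17:34325525-34325594, plus strand: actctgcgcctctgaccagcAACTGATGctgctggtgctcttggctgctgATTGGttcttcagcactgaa

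The letters were chosen after these sequences were seen, and both strands were searched. AACNGATG stood in 4 of the 5 promoters and in 2.32% of 32851 mouse promoters of the same length. ATTGG stood in all 5 and in 37.4% of all promoters. TGACGTCA stood in the *H2-Aa* promoter and in 1.79% of all. The *H2-Aa* promoter does not hold AACNGATG. AACNGATG followed by ATTGG after 5 to 30 bases stood in 10 promoters of the 32851, or 0.0304%, and 4 of those were *H2-DMb1*, *H2-DMb2*, *H2-Eb1* and *H2-Eb2*. The gap between both motifs was 23 bases in the *H2-DMb* genes and 22 bases in the *H2-Eb* genes. The *H2-DMb* genes are alike in sequence, as are the *H2-Eb* genes, so the matches within each pair are not independent. A match of letters is a description and not a binding site.

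The table was selected by the authors on these same libraries. Every one of its 621 genes differs by a factor of 2 or more in 1 or more of the 9 KO-WT library pairs, so a higher or lower level of these genes in some pair is built in. WT7 stood apart from WT1 and WT3 and lay near the KO libraries for these 8 genes. *Xist*, the noncoding RNA of the inactive X chromosome, divided the libraries differently, with 74.6 FPKM in KO4, 113 in WT1 and 98.2 in WT3 against 0.00848 to 0.0192 FPKM in KO8, KO9 and WT7. FPKM are fragments scaled to exon length and sequencing depth. The depth of the libraries was not determined, since reads were not used here.

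For all 8 class II presentation genes the mean of log2(FPKM + 1) was higher in KO than in WT BM cells, whereas this held for 38.2% of the 621 genes. None of the 8 passed the test across the table, where each had an adjusted p = 0.598 from limma. Their KO means were 1.49 to 2.21 times their WT means, and the standard deviation was 9.21% to 20.6% of the mean among KO libraries and 26.7% to 62.0% among WT libraries. The excess was carried by WT1 and WT3. WT1 lay at 30.1% to 50.1% of the KO mean, WT3 at 27.9% to 64.0%, and WT7 at 75.3% to 88.5%. In BM, more cells of a type and more RNA per cell cannot be told apart.

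**Figure D1:**
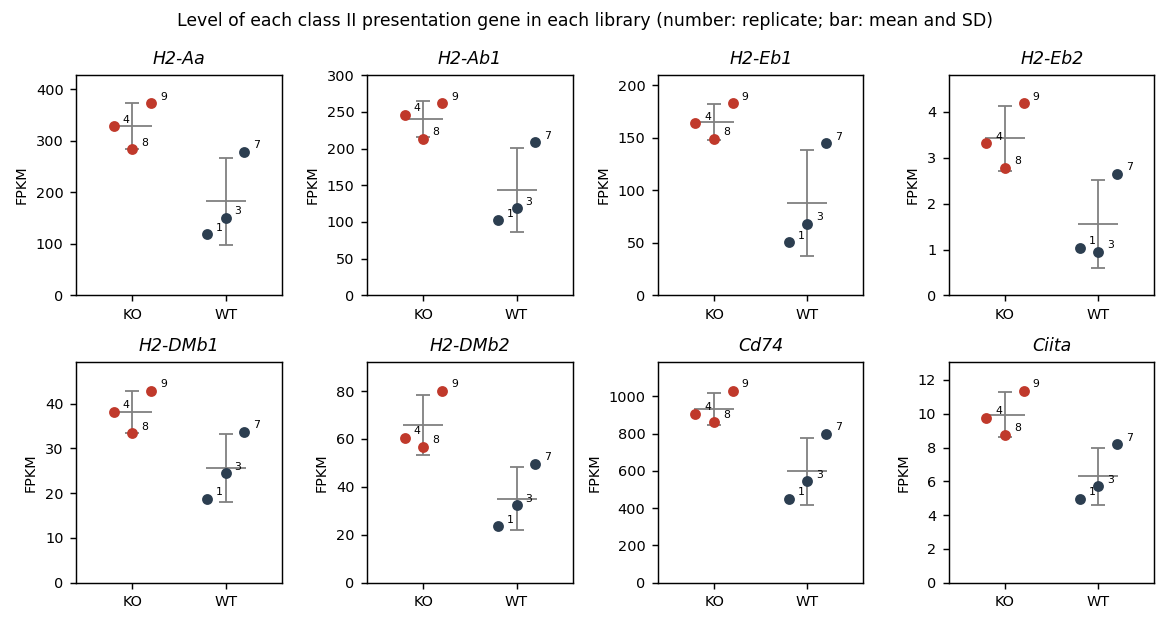
FPKM of each class II presentation gene (vertical axis, from 0, 1 panel a gene) in the 3 KO and 3 WT libraries, with each point numbered by its replicate and bars for the mean and SD. WT7 sits just under the lowest KO library in 7 panels and just above it for *H2-DMb1*, at 33.7 against 33.3 FPKM, and WT1 and WT3 are lowest in every panel.

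*H2-Aa*, the I-A alpha chain, was at 328, 284 and 373 FPKM in KO4, KO8 and KO9 and at 119, 151 and 279 FPKM in WT1, WT3 and WT7. All KO libraries were above all WT libraries, but KO8 and WT7 differed by a factor of 1.02. On log2(FPKM + 1), the fold change was 0.93 ± 0.52 (SE). *H2-Ab1*, its partner beta chain, was at 246, 214 and 261 FPKM in KO4, KO8 and KO9 and at 102, 119 and 208 FPKM in WT1, WT3 and WT7. The groups again did not overlap, by a factor of 1.02 between KO8 and WT7. Its log2 fold change was 0.81 ± 0.51 (SE). Both chains of I-A were thus ordered alike over the 6 libraries, KO9, KO4 and KO8, then WT7, WT3 and WT1.

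*H2-Eb1* was at 164, 149 and 183 FPKM in KO4, KO8 and KO9 and at 50.6, 68.4 and 145 FPKM in WT1, WT3 and WT7. Among the 8 genes it had the highest log2 fold change, 1.04 ± 0.52 (SE). The lowest KO library exceeded the highest WT library by a factor of 1.03. *H2-Eb2* was the lowest of the 8, at 3.32, 2.78 and 4.18 FPKM in the KO libraries and 1.03, 0.956 and 2.66 FPKM in the WT libraries. Its KO and WT means, 3.43 ± 0.708 and 1.55 ± 0.960 FPKM (SD, n = 3 libraries each), had the highest ratio of the 8, 2.21. Its log2 fold change of 0.85 ± 0.45 (SE) understates that ratio, because the added 1 weighs on values this low. Here WT1 and WT3 changed places, with WT3 the lowest.

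*H2-DMb1* and *H2-DMb2* encode beta chains of H2-M, the peptide exchange factor. *H2-DMb1* was at 38.2, 33.3 and 42.9 FPKM in KO4, KO8 and KO9 and at 18.8, 24.4 and 33.7 FPKM in WT1, WT3 and WT7. It was the exception among the 8, with WT7 above KO8, and had the lowest log2 fold change, 0.59 ± 0.48 (SE). *H2-DMb2* was at 60.4, 56.8 and 80.2 FPKM in the KO libraries and 23.5, 32.3 and 49.5 FPKM in the WT libraries. It had the widest gap between the groups, a factor of 1.15 from the lowest KO to the highest WT library, and a log2 fold change of 0.94 ± 0.49 (SE). The ratio of *H2-DMb2* to *H2-DMb1* was 1.58, 1.70 and 1.87 in KO4, KO8 and KO9 and 1.25, 1.32 and 1.47 in WT1, WT3 and WT7. All KO ratios were above all WT ratios, at an exact permutation p = 0.1 (two-sided), which is the lower limit for groups of 3. The longest coding transcripts of both genes were identical at 96.0% of 1045 aligned bases, and 13.7% of the 100-base windows of *H2-DMb1* and 12.9% of those of *H2-DMb2* also occur in the other gene. How the quantification divided fragments between them is not known, so the level of each and their ratio are uncertain. The other 6 genes shared no window of that length with another annotated gene, and *H2-Eb1* and *H2-Eb2* were identical at 80.5% of 765 aligned bases.

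*Cd74*, on chromosome 18 from 60803849 to 60812652, was the most abundant of the 8, at 908, 864 and 1030 FPKM in KO4, KO8 and KO9 and 451, 543 and 799 FPKM in WT1, WT3 and WT7. The groups did not overlap, and the lowest KO library was 1.08 times the highest WT library. Its log2 fold change was 0.68 ± 0.53 (SE). *Ciita*, on chromosome 16 from 10480014 to 10531064, was at 9.75, 8.74 and 11.4 FPKM in KO4, KO8 and KO9 and 4.98, 5.71 and 8.19 FPKM in WT1, WT3 and WT7, again with no overlap. Its log2 fold change was 0.60 ± 0.46 (SE). A factor of 2 or more in *Ciita* FPKM was seen in 1 of the 9 KO-WT pairs, against 2 pairs for *Cd74* and 6 for *H2-Eb1*. On the opposite strand, exons of *Dexi* overlap 329 of the 9535 exon bases annotated for *Ciita*, and the sources state no counting by strand, so reads of both genes there cannot be told apart.

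In 7 of the 8 genes every KO library lay above every WT library, as in 5.96% of the 621 genes, and in none of the 8 did every KO library lie below, as in 1.29% of the table. The groups were apart in either direction in 7.25% of the table. With limma 0 of 621 genes passed the adjusted threshold of 0.05. Without adjustment, 8 genes (1.29%) lay higher and 6 (0.966%) lower in KO at p under 0.05, none of them among these 8. That split was 22 and 4 after quantile normalization, with 6 of the 8 among the 22, and 21 and 2 with libraries scaled to the same median, with 3 of the 8 among the 21. The unadjusted p of the 8 genes ranged from 0.0595 to 0.235. Their median log2 fold change was 0.83, and that of all 621 genes was -0.35. Without WT7, KO means were 1.77 to 3.45 times WT means, and all 8 genes had non-overlapping groups, as had 21.1% of the table in that direction. Their log2 fold changes were then 0.78 to 1.47, with adjusted p of 0.104 to 0.124 from limma. WT7 was the WT library nearest to KO for these genes, so a rise without it was fixed by that choice. The median log2 fold change of the 8 was 1.13 without WT7, but 0.63 without WT1 and 0.70 without WT3. The count of 7 also depended on how libraries were scaled. It was 3 after quantile normalization (*H2-Ab1*, *H2-DMb2* and *Ciita*), where 4.03% of the table did not overlap in that direction, and 3 after scaling to the same median (*H2-Eb2*, *H2-DMb2* and *Ciita*), where 5.96% did not, although each of the 8 kept a higher mean in KO.

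**Figure D2:**
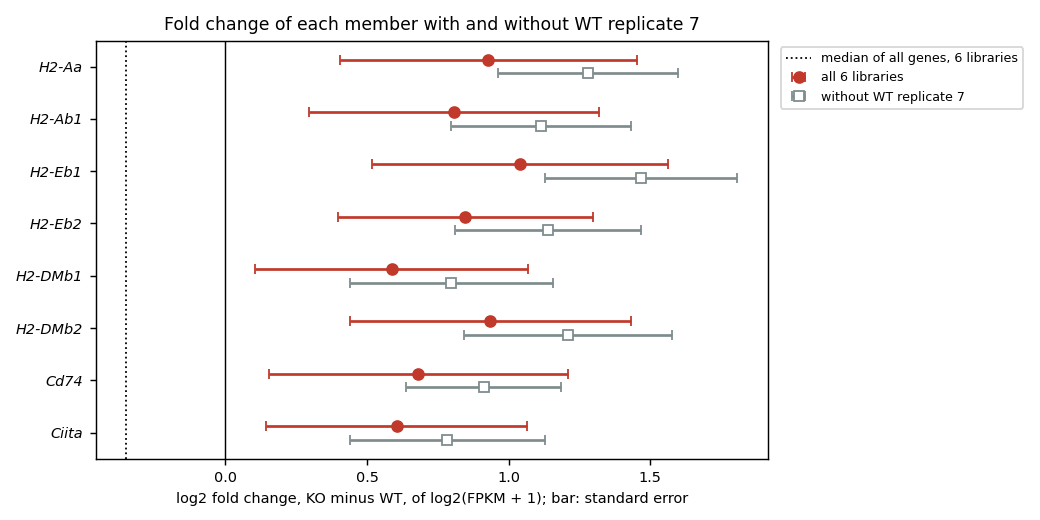
Log2 fold change of KO minus WT on log2(FPKM + 1) (horizontal axis) for the 8 genes, with the standard error from limma, over all 6 libraries (filled circles) and without WT7 (open squares). All points lie above 0 and to the right of the dotted median of all 621 genes at -0.35, and each gene shifts to the right without WT7, to 0.78 for *Ciita* and 1.47 for *H2-Eb1*.

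The size of the difference was unlike in the libraries with and without *Xist*. Among those with *Xist* above 1 FPKM, KO4 was 1.77 to 3.33 times the mean of WT1 and WT3. Among the others, the mean of KO8 and KO9 was 1.13 to 1.38 times WT7. The interaction of genotype and *Xist*, a term chosen with the data known, passed for none of the 8 genes (adjusted p = 0.337 to 0.550 from limma). Each stratum has a genotype with 1 library, so the *Xist* level and the standing of WT7 cannot be told apart. Once the model held a term for *Xist* (above 1 FPKM or not), log2 fold changes of the 8 genes were 0.48 to 0.82.

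*Ciita* and its targets moved together over the libraries. The order of the libraries was KO9 and then KO4 at the top for all 8 genes, and the order of levels among the genes was *Cd74*, *H2-Aa*, *H2-Ab1*, *H2-Eb1*, *H2-DMb2*, *H2-DMb1*, *Ciita* and *H2-Eb2* in each of the 6 libraries. Pearson's r of *Ciita* with the 7 other genes on log2(FPKM + 1) over 6 libraries was 0.976 (*H2-Eb1*) to 0.993 (*H2-DMb2*), with exact permutation two-sided p of 0.00139 to 0.00417. Spearman's rho was 1.0 for *H2-Aa*, *H2-Ab1*, *H2-Eb1*, *H2-DMb2* and *Cd74* (exact permutation p = 0.00278) and 0.943 for *H2-Eb2* and *H2-DMb1* (exact permutation p = 0.0167). Adjusted over the correlations of *Ciita* with all 620 other genes, the exact permutation p was 0.0662 to 0.0891 for r and 0.115 to 0.235 for rho, so none passed 0.05. The smallest p that 720 pairings can give is 0.00139.

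WT1 and WT3 lay well below the other 4 libraries for both axes and were also farthest from the *Ciita* median. Without both, r over the remaining 4 libraries was 0.970 to 0.997. After subtracting the mean of each genotype, r was 0.953 to 0.980. The difference between KO and WT means was thus not all of the relation, but the distance of WT7 from WT1 and WT3 remained in it. After subtracting the means of the libraries with and without *Xist*, r was 0.964 to 0.990. A high r with *Ciita* was common in the table. Of the 620 other genes, 63 (10.2%) had r above 0.9 and 36 (5.81%) below -0.9, and 12 genes other than the targets had an r at or above that of *H2-Eb1*. After subtracting genotype means, 23 of 613 genes other than the targets (3.75%) had an r at or above that of the lowest target. After subtracting the means by *Xist*, 24 (3.92%) had. The targets ranked between 3 (*H2-DMb2*) and 19 (*H2-Eb1*) among the 620. All genes share the same 6 libraries and the scaling of each library, and genes are not independent replicates.

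**Figure D3:**
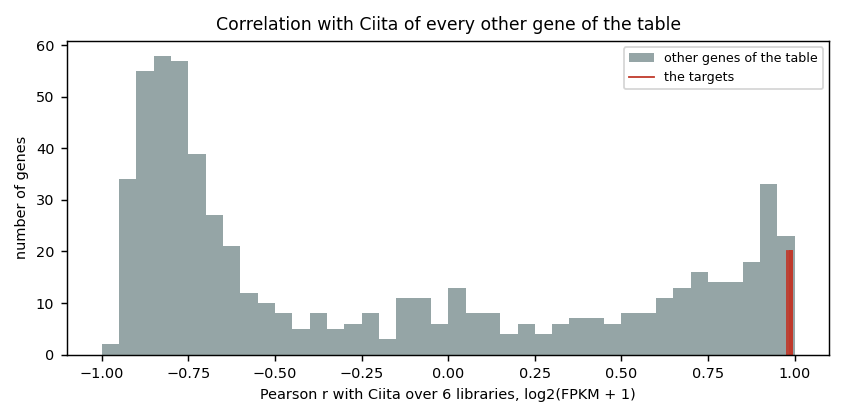
Number of genes (vertical axis) by Pearson r with *Ciita* over the 6 libraries (horizontal axis) for the genes of the table other than *Ciita*, with the 7 targets as red lines. The targets lie at 0.976 to 0.993 in the upper group, where 63 of 620 genes were above 0.9, and most genes of the table lie at negative r, with a median of -0.52.

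*Cd74* kept the closest ratio to *Ciita*. It was 93.1, 98.8 and 90.6 times the FPKM of *Ciita* in KO4, KO8 and KO9 and 90.4, 95.2 and 97.5 times in WT1, WT3 and WT7. The coefficient of variation of that ratio over 6 libraries was 3.74%, compared with 29.2% for the level of *Cd74* itself. The ratio did not separate KO from WT (KO minus WT -0.0034 on the log2 scale, exact permutation p = 1.0). *H2-DMb1* was next, at 3.77 to 4.28 times *Ciita* with a coefficient of variation of 5.33%. The chains of I-A varied more. *H2-Ab1* was 20.5 to 25.5 times *Ciita* (coefficient of variation 9.35%). *H2-Aa* was 33.7, 32.5 and 32.8 times *Ciita* in KO4, KO8 and KO9 but 23.8, 26.5 and 34.1 times in WT1, WT3 and WT7.

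*H2-Eb1* and *H2-Eb2* departed most from a constant ratio. *H2-Eb1* was 16.8, 17.04 and 16.1 times *Ciita* in KO4, KO8 and KO9 and 10.2, 12.0 and 17.7 times in WT1, WT3 and WT7. The ratio was thus low in WT1 and WT3, and WT7 had the highest of all. *H2-Eb2* was 0.318 to 0.368 times *Ciita* in the KO libraries and 0.207, 0.168 and 0.324 times in the WT libraries. Of the 7 ratios, that of *H2-DMb2* was the one whose groups did not overlap, at 6.58 ± 0.433 in KO and 5.47 ± 0.688 in WT (SD, n = 3 libraries each, exact permutation p = 0.1, adjusted p = 0.426 over all 620 genes). The exact permutation p of the other 6 ratios was 0.2 to 1.0.

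Over the 6 libraries, a doubling of *Ciita* went with slopes on the log2 scale of FPKM of 1.01 for *Cd74*, 0.95 for *H2-DMb1*, 1.23 for *H2-Ab1*, 1.40 for *H2-DMb2*, 1.43 for *H2-Aa*, 1.63 for *H2-Eb1* and 1.92 for *H2-Eb2*. A slope of 1 is a constant ratio. Leaving out 1 library at a time kept the slope of *H2-Eb1* between 1.46 and 1.83 and that of *Cd74* between 0.93 and 1.07. Without both WT1 and WT3 the slopes were 0.73 to 1.43, with *H2-Eb1* at 0.73 and *Cd74* at 0.74, so the steeper slope of *H2-Eb1* rested on those libraries. *H2-DMb2* at 1.39 and *H2-Eb2* at 1.43 stayed above 1. *H2-Aa*, *H2-Ab1* and *H2-DMb1* were at 0.94, 0.74 and 0.80. The slope of 1 for *Cd74* thus held over all 6 libraries but not over these 4.

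**Figure D4:**
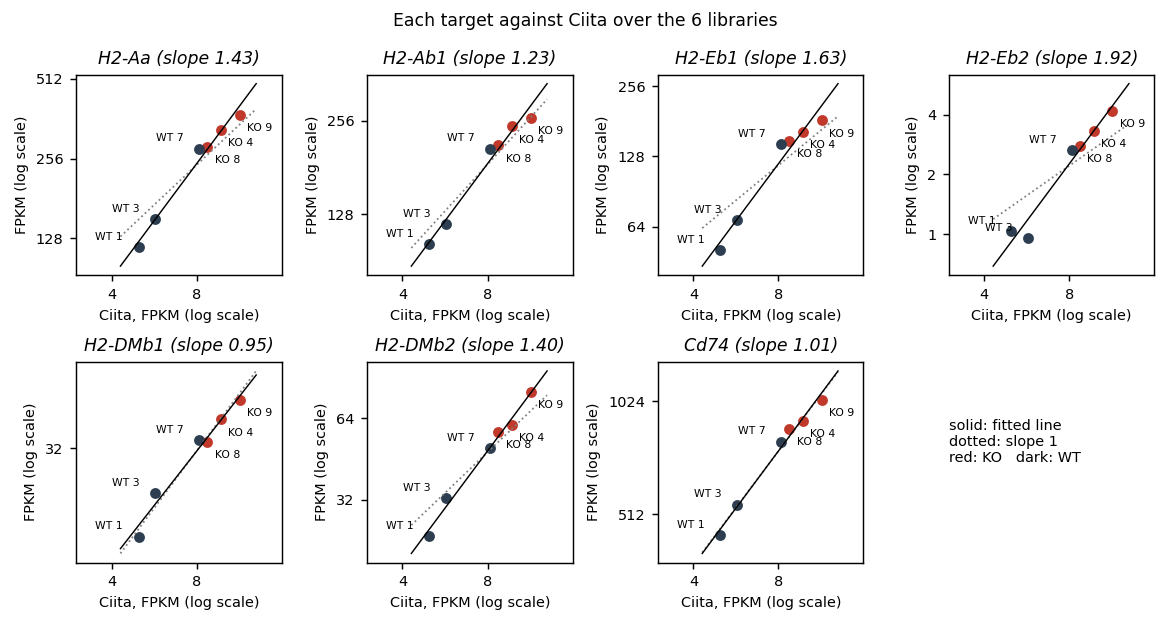
FPKM of each target (vertical axis, log scale) against FPKM of *Ciita* (horizontal axis, log scale) in the 6 libraries, with the fitted line (solid) and a line of slope 1 (dotted). For *Cd74* both lines nearly coincide at a slope of 1.01, whereas *H2-Eb2* has a slope of 1.92, and WT1 and WT3 are the low end of each panel.

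Ratios among the genes other than *Ciita* were computed for 9 chosen pairs and not for every pair. Of those 9, the ratio of the partner chains of I-A varied least, though more than the ratios of *Cd74* (3.74%) and *H2-DMb1* (5.33%) to *Ciita*. *H2-Aa* was 1.34, 1.33 and 1.43 times *H2-Ab1* in KO4, KO8 and KO9 and 1.16, 1.27 and 1.34 times in WT1, WT3 and WT7, with a coefficient of variation of 6.74%. *Cd74* was 2.76 to 3.04 times *H2-Aa* in the KO libraries and 3.80, 3.60 and 2.86 times in WT1, WT3 and WT7. The invariant chain was thus higher against the alpha chain where both were low. *H2-DMb1* per *H2-Aa* was 0.115 to 0.117 in the KO libraries and 0.158, 0.162 and 0.121 in WT1, WT3 and WT7, without overlap (exact permutation p = 0.1). In these 3 ratios WT7 was closer to the KO mean than WT1 and WT3 were, whereas WT1 was the closest for *H2-Eb1* over *H2-Eb2* (KO mean 48.9, WT1 49.0, WT7 54.5) and for *H2-DMb2* over *H2-Aa* (KO mean 0.200, WT1 0.198, WT7 0.178).

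The genes of the table whose pattern was most like that of the mean of the 8 genes were named by the highest Pearson r over 6 libraries, among 543 other genes with a mean of at least 1 FPKM. They were *Ccr6*, *Gimap7*, *Trim7*, *Gimap8*, *Cxcr5*, *Gimap4*, *Faah*, *Fcer2a*, *Gimap3* and *Car1*, with r from 0.998 to 0.985. *Ccr6* and *Cxcr5* encode chemokine receptors of mature lymphocytes, and *Fcer2a* encodes CD23, the low-affinity IgE receptor of mature B cells. *Ccr6* was at 3.34, 3.04 and 4.11 FPKM in KO4, KO8 and KO9 and at 0.666, 1.14 and 2.87 FPKM in WT1, WT3 and WT7. *Fcer2a* was at 27.6, 27.6 and 33.7 FPKM in the KO libraries and 10.2, 15.4 and 25.6 FPKM in the WT libraries. The *Gimap* genes encode GTPases of lymphocytes and lie together on chromosome 6. *Car1*, a carbonic anhydrase of erythroid cells, was at 190, 202 and 217 FPKM in KO and 98.3, 112 and 170 FPKM in WT. KO and WT did not overlap in 7 of these 10 genes, and none passed the test (adjusted p = 0.598 from limma).

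Other genes of the pathway were few in the table. Of 23 further genes of class II processing and presentation, 1 was analysed here. It was *Ubd*, a ubiquitin-like modifier, with 1.94 ± 0.587 FPKM in KO against 2.78 ± 1.55 in WT (SD, n = 3 libraries each). Of 24 transcription factors and inducers, 1 was analysed here, *Irf4*, a factor of B cells and plasma cells. It was at 17.1, 23.3 and 19.1 FPKM in KO4, KO8 and KO9 and at 58.5, 34.8 and 16.5 FPKM in WT1, WT3 and WT7, so it was highest in the libraries where class II genes were lowest. Of a list of 30 genes of MHC class I presentation, 0 were in the table. A class I gene outside that list, *H2-Q9*, named after its values were seen, was in the table with 62.4 ± 6.76 FPKM in KO against 40.5 ± 18.2 in WT (SD over 3 libraries), at a log2 fold change of 0.72 ± 0.51 (SE, adjusted p = 0.598 from limma). The alpha chain of H2-M, the RFX subunits and the other class II genes of the interval were not analysed here.

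Markers of B-lineage cells moved over the libraries too. Of 30 mature B-cell markers, 11 were in the table, 4 with a higher and 7 with a lower mean in KO. The 4 were *Ccr6*, *Cxcr5*, *Fcer2a* and *Cr2*, the last named after its values were seen, and they had a positive r with the class II mean, whereas the other 7 had a negative one. Among those 7 was *Spib*, a transcription factor of B cells and plasmacytoid dendritic cells, with 118, 147 and 127 FPKM in KO4, KO8 and KO9 against 299, 228 and 98.9 FPKM in WT1, WT3 and WT7, so it was highest in WT1 and WT3. The 11 together summed to 550 to 735 FPKM in KO and 515 to 1301 FPKM in WT. Of 22 B-cell precursor genes, the 15 in the table all had a KO mean below the WT mean and a negative r with the class II mean. They summed to 744 to 975 FPKM in KO and 677 to 1847 FPKM in WT. Of 5 plasma cell genes, from a list of 20, *Jchain* had a higher mean in KO and 4 had a lower one. *Jchain* was at 66.2 ± 10.6 FPKM in KO against 31.8 ± 25.9 in WT (SD over 3 libraries). All 5, *Jchain* included, summed to 127 to 172 FPKM in KO and 124 to 207 FPKM in WT.

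Of 34 monocyte and macrophage markers, 5 were in the table, and all 5 had a higher mean in KO. *Cd163*, a scavenger receptor of macrophages, was at 9.84, 9.40 and 11.05 FPKM in KO4, KO8 and KO9 and 4.35, 6.39 and 6.56 FPKM in WT1, WT3 and WT7. The groups overlapped for *F13a1* (119 FPKM in KO4, 166 in WT7) and for *Timd4*. *Timd4* was at 2.15, 0.981 and 1.26 FPKM in KO4, KO8 and KO9 and 1.85, 1.85 and 0.406 FPKM in WT1, WT3 and WT7. Of the 5 genes, 4 had a positive r with the class II mean, up to 0.919, and *Timd4* had a negative one, -0.356. Those 5 summed to 234 to 290 FPKM in KO and 137 to 248 FPKM in WT. Of 26 dendritic cell markers, 2 were in the table, *Cd8a*, which T cells also express, and *Fscn1*, and they summed to 4.62 to 9.27 FPKM in KO and 4.50 to 6.74 FPKM in WT. Of 40 T-cell and NK-cell genes, the 19 in the table all had a KO mean above the WT mean, and they summed to 148 to 261 FPKM in KO and 87.6 to 180 FPKM in WT. No value of the table was 0, so the lists' genes were detected in all 6 libraries. No gene of these lists passed the test, and the part of these cells in the levels of the class II genes was not tested.

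**Figure D5:**
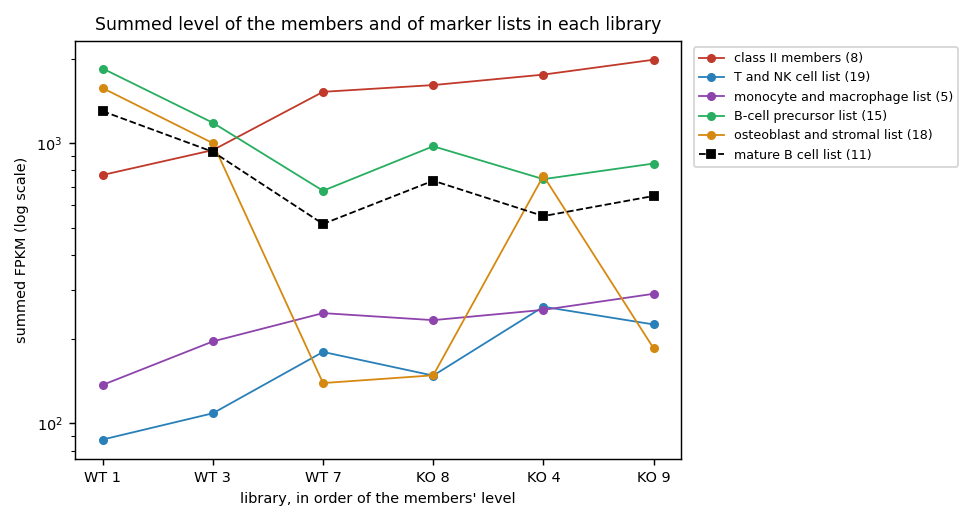
Summed FPKM (vertical axis, log scale) of the 8 class II genes and of marker lists in each library (horizontal axis, ordered by the class II level). The class II sum runs from 770 FPKM in WT1 to 1986 in KO9, while the lists of mature B cells and of B-cell precursors are highest in WT1, at 1301 and 1847.

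Lists of other cells, and of immediate-early and stress genes, also differed between libraries. Of a list of 26 osteoblast and stromal genes, which also held endothelial and osteoclast genes, the 18 in the table all had a KO mean below the WT mean. They summed to 765, 149 and 185 FPKM in KO4, KO8 and KO9, against 1573, 1001 and 139 FPKM in WT1, WT3 and WT7. All 18 had a negative r with the class II mean over the 6 libraries (-0.911 to -0.613), and KO4, the highest KO library in the stromal sum, was second highest for all 8 class II genes. Of 26 neutrophil and eosinophil genes, the 5 in the table were all eosinophil genes, among them *Prg2*, *Prg3*, *Epx* and *Ear1*, so neutrophils were not covered. These 5 were lower on average in KO (sums of 395 to 563 FPKM in KO and 442 to 1029 FPKM in WT). Of 22 erythroid and megakaryocyte genes, 7 were in the table, 3 higher and 4 lower on average in KO (sums of 2169 to 2284 FPKM in KO and 1671 to 2920 FPKM in WT). Of 32 immediate-early and stress genes, 8 were in the table, and 7 of these were higher on average in KO. Their sums were 207, 372 and 498 FPKM in KO4, KO8 and KO9 and 186, 214 and 427 FPKM in WT1, WT3 and WT7, so WT3 and WT7 were both within the range of the KO libraries and KO4 lay near WT1 and WT3. Their part in the class II levels was not tested.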

How the data were processed

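Reads were aligned by the authors to mm10 with HISAT2 (2.0.5), and abundance per gene was estimated with StringTie (1.3.3b), according to the submitters' processing notes and the study's methods. FPKM per gene and library, as deposited by the authors, were used. The authors also deposited log2 values, whose further normalization the sources used here do not give, and these served as an alternative. Deposited folds of library pairs and enrichment tables of GO terms and KEGG pathways hold the authors' own comparisons and were not used here. No per-library column was left unmatched to a sample. Depth was not determined, so no counting interval is given.

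For KO against WT, limma (3.58.1, R 4.3.3) was fitted to log2(FPKM + 1) of the 6 libraries with a trend of the variance on intensity, and p-values were adjusted by Benjamini-Hochberg over all 621 genes, each above 0 in at least 3 libraries. Its prior, estimated from selected genes, counted 17.9 degrees of freedom beside 4 residual ones. The script was tested on simulated data. Correlations and ratios were tested by exact permutation, adjusted over the 620 other genes in place of the planned 7 targets. Members, gene lists, the rule for named genes and alternatives were chosen with earlier results of these data known. Named genes were the 8 members, up to 4 genes of each list with the highest mean, *Xist* and the 10 genes most like the members, predicted genes and genes with a mean under 1 FPKM left out. *Cr2*, *H2-Q9* and *Dexi* fall outside this rule. Promoters and positions are from RefSeq, transcripts and exons from GENCODE M21, both on GRCm38, which mm10 names. Python 3.11.15 was used.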

Additional observations from a re-analysis of the deposited data

How the results depend on the processing

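The comparison was repeated with 0.1 as the pseudocount, with no filter or only genes averaging 1 FPKM or more, after quantile normalization, with libraries set to the same median, with no intensity trend, with the authors' log2 columns, with *Xist* as a term, and without each library. Each of the 8 genes kept a higher mean in KO and stayed short of the adjusted threshold in all of them. Their median log2 fold change ranged from 0.63 without WT replicate 1 to 1.13 without WT replicate 7. The median of all genes moved from -0.35 to -0.18 after quantile normalization and to -0.22 after median scaling. The number of the 8 genes whose groups did not overlap fell from 7 (5.96% of the table) to 3 with quantile normalization (4.03%) and to 3 with median scaling (5.96%), was 6 with the authors' log2 columns (5.48%), and was 7 to 8 when 1 library was left out. The number of genes past the threshold was 0 to 1 when 1 library was left out, with 1 gene without KO replicate 4 and 1 without KO replicate 9, neither of them a class II gene, and 0 in the other settings. At an unadjusted p under 0.05 from limma, leaving out WT replicate 7 gave 61 genes higher and 191 lower in place of 8 and 6, with 7 of the 8 class II genes among the 61. Quantile normalization gave 22 higher, 6 of them class II genes, and 4 lower, median scaling gave 21 higher, 3 of them class II genes, and 2 lower, and 1 class II gene passed with no intensity trend and 1 with *Xist* as a term. Pearson's r with *Ciita* stayed between 0.961 and 0.999 in each alternative. The log2 ratio of *Cd74* to *Ciita*, KO minus WT, was -0.0034, ranged from -0.0387 (without KO replicate 8) to 0.024 when 1 library was left out, and changed sign to 0.077 with a pseudocount of 1, 0.214 after quantile normalization, 0.077 after median scaling, and 0.0033 to 0.024 without KO replicate 4 (0.0045), KO replicate 9 (0.024), WT replicate 3 (0.0033) or WT replicate 7 (0.021). The cause was not tested. No paired analysis was possible because KO and WT share no replicate number.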
